A study of Mus musculus with 11 samples.

Results

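Footprints of translating ribosomes were examined for 8 genes whose products build, carry or bind lipoproteins in liver: Apob (ENSMUSG00000020609), Mttp (ENSMUSG00000028158), Apoe (ENSMUSG00000002985), Apoc1 (ENSMUSG00000040564), Apoc2 (ENSMUSG00000002992), Apoc4 (ENSMUSG00000074336), Apoa2 (ENSMUSG00000005681) and Apoh (ENSMUSG00000000049). They were chosen by Ensembl identifier from a deposited table of 22019 genes, 7 of them held counts, and Apoc2 was listed at 0 in every library. The livers came from male wild-type mice of unstated age that received a high-fat, high-sugar diet (HFHS, written HFD in the column names) or a chow diet, with no further treatment. After digestion of liver lysates with RNase I, the RNA protected by a single ribosome (a monosome footprint) or by 2 ribosomes packed against each other (a disome footprint, left where a ribosome has run into the one ahead) was cut from a gel and sequenced. There were 3 HFHS and 3 chow monosome libraries and 2 HFHS and 3 chow disome libraries.

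The liver exports triglyceride and cholesterol in very low density lipoprotein (VLDL). One Apob molecule forms the scaffold of each particle, and the microsomal triglyceride transfer protein encoded by Mttp loads lipid onto it in the endoplasmic reticulum while it is being translated. Apolipoproteins that move between particles (Apoe and the C apolipoproteins) then steer the particle to lipases and receptors. In the RefSeq gene table Apoc2, Apoc4, Apoc1 and Apoe are consecutive protein-coding genes on chromosome 7, whereas Apob lies on chromosome 12, Mttp on chromosome 3, Apoa2 on chromosome 1 and Apoh on chromosome 11.

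Total counts ran from 1196240 to 1612324 in HFHS monosomes, from 795145 to 1248781 in chow monosomes, from 235748 to 238837 in HFHS disomes and from 147212 to 279331 in chow disomes, and libraries are named here by the sample barcode in their column names. Both chow libraries of barcode AGCTA were unlike the rest of their group. Levels are in CPM, the count scaled to a common library size. Over 1764 genes of at least 50 CPM on average in both footprint classes, the chow monosome library AGCTA correlated at r = 0.80 with each of the others, which correlated at r = 0.98 with each other. The corresponding values in chow disomes were r = 0.77 for each pair with AGCTA and r = 0.97 for the other pair. Results that lean on AGCTA are given below with and without it. Because whole liver was used, fewer cells of a type and less RNA per cell cannot be told apart, and no mRNA level was measured, so footprints per mRNA are not known.

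Together the 8 genes took 7.25% ± 0.61 of all counts in HFHS monosomes and 6.22% ± 0.24 in chow monosomes (SD, n = 3 each). In disomes they took 5.43% ± 0.41 in HFHS (n = 2) and 4.80% ± 0.10 in chow (n = 3). The HFHS libraries lay above the chow libraries in both classes, from 6.62% to 7.83% against 5.98% to 6.46% in monosomes and from 5.14% to 5.72% against 4.69% to 4.90% in disomes. Apoe supplied 62.2% of this joint share in HFHS monosomes and 62.1% in chow monosomes, but 44.1% in HFHS disomes and 43.3% in chow disomes. The shares are not corrected for coding length, so they do not rank the genes by ribosome density.

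**Figure D1:**
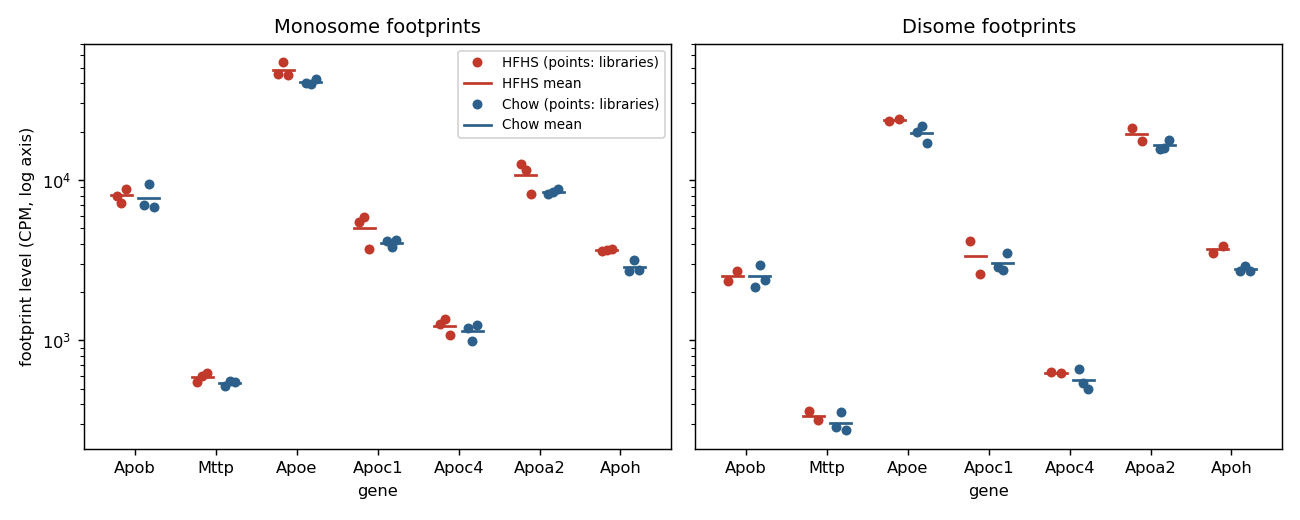
Footprint level of 7 genes in each library, in CPM on a log axis, for monosomes (left) and disomes (right). Points are libraries and bars are group means. Every Apoh point of HFHS lies above every chow point in both classes, while the points of Apob overlap in both.

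The first question was whether the footprint levels of these genes, relative to the other genes of a library, differed between HFHS and chow. In monosomes 2 of the 7 genes tested were higher in HFHS, Apoe and Apoh, and none was lower (edgeR quasi-likelihood test, adjusted p below 0.05), against a background of 4.65% of 6754 genes called in either direction, 3.02% higher and 1.63% lower. The other 5 did not pass. Neither Apoe nor Apoh passed with a minimum count of 50, with library totals in place of TMM scaling or with all 11 libraries in 1 fit, and Apoe did not pass with DESeq2. All 7 had a log2 fold change above 0, with a median of 0.26, from 0.06 for Apob to 0.37 for Apoh, beside a median of -0.02 over all genes tested. In disomes 0 of the 7 passed with edgeR, or with DESeq2, against 2.96% of 2804 genes, 1.82% higher and 1.14% lower, and Apoh alone had an unadjusted p below 0.05. The median there was 0.09, from -0.06 for Apob to 0.34 for Apoh, beside -0.03 over all genes tested. The libraries of Apoe and of Apoh did not overlap between diets in either class, with HFHS higher. Such a lack of overlap in both classes, with HFHS higher, was found for 7.28% of the 2788 genes tested in both.

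**Figure D2:**
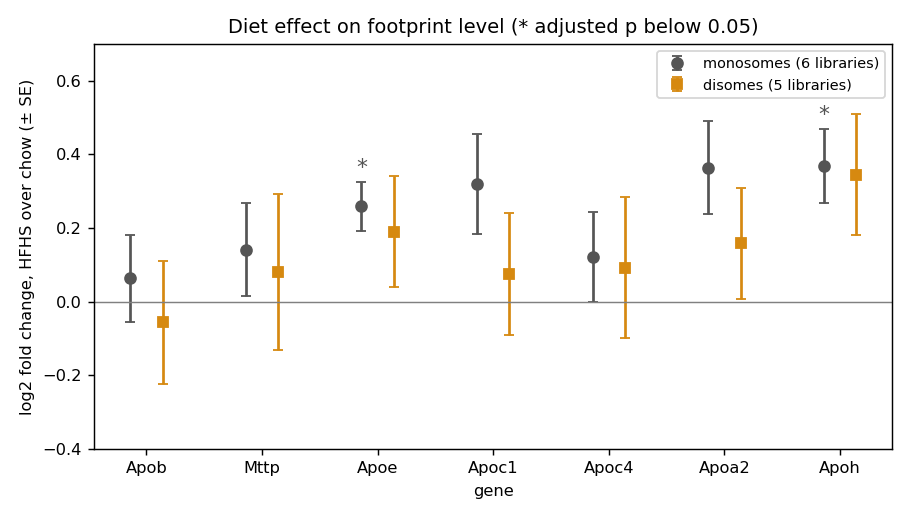
Log2 fold change of footprint level, HFHS over chow, for 7 genes in monosomes (circles) and disomes (squares). Bars are standard errors of the edgeR fit, and a star marks adjusted p below 0.05. Only Apoe and Apoh in monosomes carry a star, at 0.26 and 0.37, and the Apob values lie nearest 0.

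Apoh encodes beta-2-glycoprotein I, a plasma protein made by hepatocytes that binds phospholipid and is found in part on lipoproteins. Its monosome level was 3628, 3677 and 3741 CPM in HFHS, against 2716, 3183 and 2733 CPM in chow. Every HFHS library lay above every chow library, and the HFHS libraries lay close together. The log2 fold change was 0.37 ± 0.10 (SE), which is 1.29-fold, with an edgeR adjusted p of 0.0281. In disomes Apoh had 3521 and 3884 CPM in HFHS, against 2694, 2925 and 2692 CPM in chow, again without overlap. The disome change was of similar size, 0.34 ± 0.16, but missed the threshold (edgeR adjusted p = 0.311). The monosome call was lost without the chow library AGCTA (edgeR adjusted p = 0.200), without its chow partner CGTAA (0.167), and without either of the HFHS libraries CTAGA (0.0854) and GATCA (0.0518), with log2 fold changes from 0.33 to 0.46 over all 6 libraries left out in turn.

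Apoe is the ligand through which remnant particles are taken up by the LDL receptor family, and it is made by hepatocytes and macrophages. Its monosome level was 46058, 54115 and 44878 CPM in HFHS, against 40284, 39441 and 42700 CPM in chow. The lowest HFHS library lay above the highest chow library, and GATCA was the highest of all. The log2 fold change was 0.26 ± 0.07 (SE), 1.20-fold, with an edgeR adjusted p of 0.0199. In disomes Apoe had 23224 and 23842 CPM in HFHS, against 20016, 21790 and 17014 CPM in chow. The groups did not overlap, and the log2 fold change of 0.19 ± 0.15 did not pass (edgeR adjusted p = 0.651) and was 0.09 without the chow library CGTAA. The monosome call was lost without the chow library AGCTA (edgeR adjusted p = 0.284), without CGTAA of chow (0.0631) and without GATCA of HFHS (0.118, log2 fold change 0.18).

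The sequences just upstream of Apoe and Apoh are shown because these were the genes called higher in HFHS. They are the 120 bases before the start of the first entry of each gene in the RefSeq promoter table (build GRCm38.p6; the build behind the counts is not given in the sources used here), and all of the 8 genes but Apoc1 were matched there. Capitals mark a match to a FOXA motif (TGTTTAC), searched on both strands together with a TATA box (TATAAA) and an HNF4A motif (GGNCAAAG). Matches to different motifs did not overlap in these genes.
Apoe, chr7:19699189-19699308, minus strand: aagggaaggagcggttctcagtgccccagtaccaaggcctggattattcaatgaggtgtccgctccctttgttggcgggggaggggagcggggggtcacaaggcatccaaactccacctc
Apoh, chr11:108395177-108395296, plus strand: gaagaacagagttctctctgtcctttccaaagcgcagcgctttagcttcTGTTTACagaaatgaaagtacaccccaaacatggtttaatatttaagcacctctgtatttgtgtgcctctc
Within 250 bases upstream of the first entry, Apoh and Apoa2 each held the FOXA motif, which 3.17% of 32851 promoter windows held. Further entries, of which Apoe has 3 in all and Apoa2 has 2, were not searched, while the shares cover all windows. Apob and Apoa2 each held the TATA box letters, at any position of the window, as did 12.4% of windows. The HNF4A motif, present in 4.89% of windows, was in none of the 7 genes searched, which include Apoc2 and leave out Apoc1. A match is a string of letters and does not show that a factor binds.

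Apoc1 is a small exchangeable apolipoprotein that slows the uptake and lipolysis of triglyceride-rich particles. Its monosome level was 5501, 5891 and 3707 CPM in HFHS, against 4189, 3818 and 4214 CPM in chow. HFHS libraries CTAGA and GATCA lay above all chow libraries, and GCATA lay below all of them. The log2 fold change of 0.32 ± 0.14 did not pass (edgeR adjusted p = 0.240). It was 0.33 and passed with no filter on counts (edgeR adjusted p = 0.0189), and it turned on single HFHS libraries. Without GCATA it was 0.50 and passed (edgeR adjusted p = 0.00104), and without GATCA it was 0.20 (0.499). The disome libraries showed the same split, with 4141 CPM in CTAGA and 2607 CPM in GCATA of HFHS, against 2860, 2765 and 3510 CPM in chow. The disome log2 fold change was 0.07 ± 0.16 (edgeR adjusted p = 0.909), and with single libraries left out it ran from -0.30 to 0.39.

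Apoa2 is an abundant apolipoprotein of high density lipoprotein. It followed the same split as Apoc1, with 12570, 11614 and 8205 CPM in HFHS monosomes, against 8228, 8448 and 8757 CPM in chow monosomes. The low HFHS library was again GCATA, about level with the lowest chow library. The log2 fold change was 0.36 ± 0.13, which did not pass (edgeR adjusted p = 0.145), and 0.38 with no filter on counts, which did (0.000580). It was 0.53 without GCATA, which passed (edgeR adjusted p = 6.23e-05), and 0.24 without CTAGA (0.312). In disomes Apoa2 had 21203 CPM in CTAGA and 17405 CPM in GCATA of HFHS, against 15636, 15821 and 17871 CPM in chow, a log2 fold change of 0.16 ± 0.15 (edgeR adjusted p = 0.716) that was 0.0075 without CTAGA and 0.31 without GCATA. The Apoa2 locus overlaps Tomm40l in the RefSeq table, and how shared reads were counted is not given in the sources used here.

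Apob, the scaffold of VLDL, did not pass for the diet in either class. Much of its mRNA in mouse liver is edited to a stop codon and yields a shorter protein. Its monosome level was 8000, 7235 and 8793 CPM in HFHS, against 7000, 9380 and 6831 CPM in chow. The groups overlapped, since the chow library ATCGT was the highest of the 6. The log2 fold change was 0.06 ± 0.12 (95% interval -0.19 to 0.32, edgeR adjusted p = 0.864), and it was 0.24 without the chow library ATCGT (0.145). In disomes it had 2350 and 2724 CPM in HFHS, against 2161, 2968 and 2397 CPM in chow, a log2 fold change of -0.06 ± 0.17 (95% interval -0.39 to 0.27, edgeR adjusted p = 0.941).

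Mttp, the lipid loader, likewise did not pass. Its monosome level was 550, 601 and 624 CPM in HFHS, against 519, 558 and 548 CPM in chow, and the groups overlapped by a single HFHS library, CTAGA. The log2 fold change was 0.14 ± 0.13 (95% interval -0.12 to 0.40, edgeR adjusted p = 0.641). Its disome level was 362 and 318 CPM in HFHS, against 289, 356 and 275 CPM in chow, a log2 fold change of 0.08 ± 0.21 (edgeR adjusted p = 0.933). These disome levels rest on 76 to 88 counts per library in HFHS and 45 to 89 in chow.

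Apoc4, a minor apolipoprotein of VLDL, had 1267, 1355 and 1077 CPM in HFHS monosomes, against 1196, 999 and 1244 CPM in chow monosomes. The groups overlapped, and the log2 fold change of 0.12 ± 0.12 did not pass (edgeR adjusted p = 0.694). It was 0.04 without the chow library ATCGT, 0.06 without the HFHS library GATCA and 0.21 without the HFHS library GCATA. In disomes it had 633 and 624 CPM in HFHS, against 661, 539 and 495 CPM in chow, with 103 to 154 counts per library and a log2 fold change of 0.09 ± 0.19 (edgeR adjusted p = 0.902). Apoc2 encodes the activator that lipoprotein lipase needs. Its line held 0 counts in all 11 libraries, which allows up to 3 counts a library, equal to between 1.86 and 3.77 CPM in a monosome library and between 10.7 and 20.4 CPM in a disome library (counting error only). In the RefSeq table the gene Gm44805 overlaps both Apoc2 and Apoc4. How reads shared by overlapping genes were counted is not given, so the values of both are uncertain and the 0 of Apoc2 is reported as listed.

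The next question was how the disome level of each gene compared with its monosome level, relative to the average gene. Apob, Apoe, Apoc4 and Mttp were lower in disomes than in monosomes in both diets, Apoa2 was higher in both, and Apoh passed in neither. In HFHS 1 of the 7 genes was higher and 4 were lower (edgeR adjusted p below 0.05), against 25.1% of 7437 genes called, 11.5% higher and 13.6% lower. In chow 1 was higher and 5 were lower, against 44.9% of 4713 genes called, 21.6% higher and 23.3% lower. For every gene called, the disome and monosome libraries did not overlap, as was so in either direction for 58.3% of genes tested in HFHS and 53.7% in chow. The median log2 ratio of the 7 was -0.79 in HFHS and -0.75 in chow, beside -0.07 and -0.01 over all genes tested. The column names give monosomes and disomes different library numbers, so a difference between pools and one between footprint classes cannot be told apart.

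**Figure D3:**
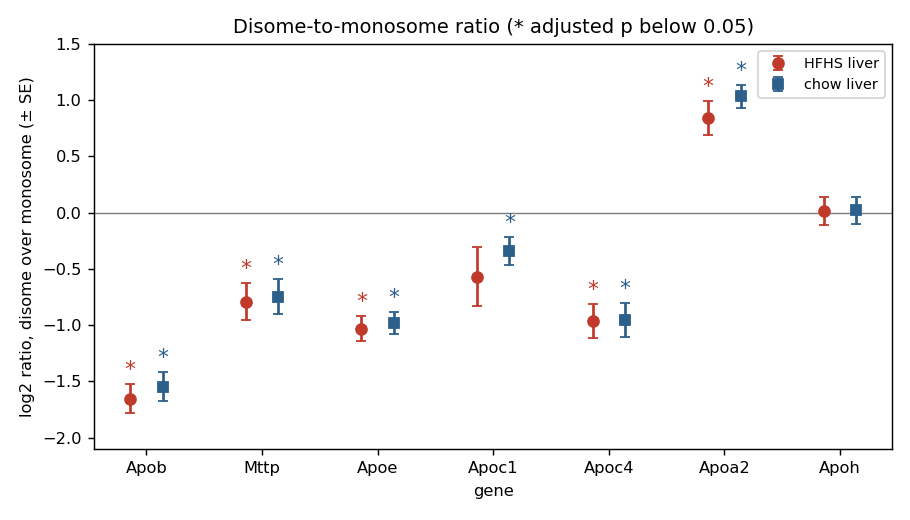
Log2 ratio of disome over monosome level for 7 genes in HFHS liver (circles) and chow liver (squares). Bars are standard errors of the edgeR fit, and a star marks adjusted p below 0.05. Apob is the lowest at -1.65 in HFHS and -1.55 in chow, Apoa2 is the only gene above 0 with a star, and Apoh sits at 0.01 and 0.02.

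Apob had the lowest ratio of the 7. In HFHS liver its disomes averaged 2537 ± 265 CPM (SD, n = 2), against 8009 ± 779 CPM for its monosomes (n = 3). In chow liver disomes averaged 2509 ± 415 CPM, against 7737 ± 1426 CPM for monosomes (n = 3 each). The log2 ratio was -1.65 ± 0.13 in HFHS (3.14-fold lower, edgeR adjusted p = 8.03e-11) and -1.55 ± 0.13 in chow (2.93-fold lower, 9.63e-12). Of all genes tested, 8.83% had a lower ratio in HFHS and 7.51% in chow.

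Apoa2 stood on the other side. Its disomes averaged 19304 ± 2686 CPM in HFHS (n = 2), against 10796 ± 2295 CPM for monosomes (n = 3). The chow averages were 16443 ± 1241 CPM for disomes, against 8477 ± 266 CPM for monosomes (n = 3 each). The log2 ratio was 0.84 ± 0.15 in HFHS (1.80-fold, edgeR adjusted p = 0.000616) and 1.03 ± 0.10 in chow (2.05-fold, 1.36e-10). Of all genes tested, 83.1% had a lower ratio in HFHS and 87.8% in chow. Without the HFHS disome library CTAGA the HFHS ratio was 0.67 and missed the threshold (edgeR adjusted p = 0.0664).

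Apoe and Apoc4, from the gene run on chromosome 7, had close to the same ratio. Disomes of Apoe averaged 23533 ± 436 CPM in HFHS (n = 2), against 48350 ± 5027 CPM for its monosomes (n = 3). In chow the averages were 19607 ± 2414 CPM for disomes, against 40808 ± 1692 CPM for monosomes (n = 3 each). Its log2 ratio was -1.03 ± 0.11 in HFHS (edgeR adjusted p = 2.20e-08) and -0.98 ± 0.10 in chow (1.04e-10). That of Apoc4 was -0.97 ± 0.15 in HFHS (edgeR adjusted p = 1.25e-05) and -0.96 ± 0.15 in chow (1.58e-06). Mttp followed with -0.79 ± 0.16 in HFHS (edgeR adjusted p = 0.000524) and -0.75 ± 0.15 in chow (0.000124).

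Apoc1, from the same run, was nearer to the average gene. Its log2 ratio was -0.57 ± 0.26 in HFHS, which did not pass (95% interval -1.21 to 0.07, edgeR adjusted p = 0.177), and -0.34 ± 0.12 in chow, which did (0.0203). The HFHS value spans the low GCATA libraries of both classes. Within a barcode it was -0.41 in CTAGA and -0.51 in GCATA. With single libraries left out the value ran from -0.97 to -0.29: it was -0.29 without the disome library GCATA (edgeR adjusted p = 0.478), -0.44 without the monosome library GATCA and -0.47 without the monosome library CTAGA (0.150 each). It passed without the monosome library GCATA (-0.71, edgeR adjusted p = 0.0110) and without the disome library CTAGA (-0.97, 0.0386). With the sample barcode as a replicate block the HFHS ratio was -0.46 and passed (edgeR adjusted p = 1.37e-05). Without pairing but with no filter on counts it was -0.71 and also passed (edgeR adjusted p = 4.78e-06). The HFHS call thus depended on the filter, on the libraries kept and on whether libraries of a barcode are taken as pairs. A shared liver is not stated. The chow call was lost without both AGCTA libraries (-0.34, edgeR adjusted p = 0.107). Apoh disomes averaged 3702 ± 257 CPM in HFHS (n = 2), against 3682 ± 57 CPM for monosomes (n = 3), and 2770 ± 134 CPM in chow, against 2877 ± 265 CPM for monosomes (n = 3 each). Its log2 ratio was 0.01 ± 0.12 in HFHS (95% interval -0.23 to 0.26) and 0.02 ± 0.12 in chow (95% interval -0.22 to 0.27).

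**Figure D4:**
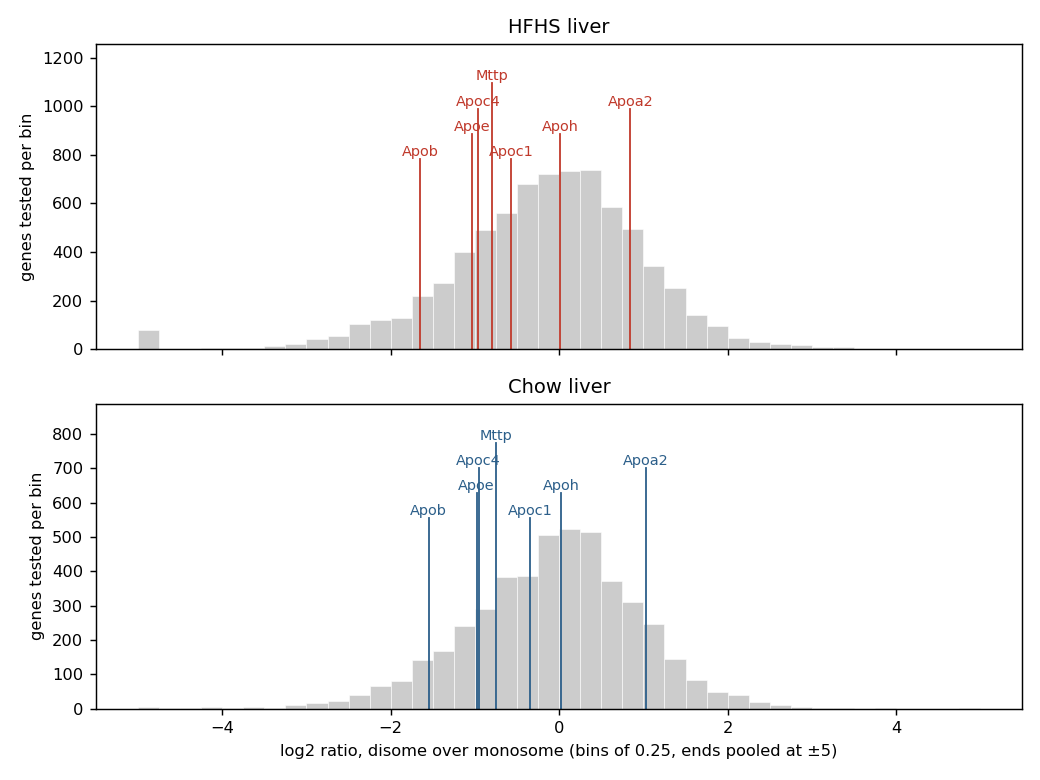
Number of genes tested (grey bars, bins of 0.25) by log2 ratio of disome over monosome level in HFHS liver (top) and chow liver (bottom), with coloured lines at the 7 genes. Apob, Apoe, Apoc4, Mttp and Apoc1 lie left of the centre, Apoh at the centre and Apoa2 to the right in both diets.

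The last comparison asked whether the diet changed disomes differently from monosomes, in one fit over all 11 libraries. None of the 7 genes passed (edgeR adjusted p = 1.00 for each), 0 of the 7 had an unadjusted p below 0.05, and the background was 0.00% of 7236 genes called (0 genes), with 4.95% at an unadjusted p below 0.05. DESeq2 called 0 of the 7 as well. The difference, disome minus monosome diet effect on the log2 scale, was tightest for Apoe at 0.02 (95% interval -0.22 to 0.25). It was -0.03 for Apob (-0.39 to 0.32), -0.12 for Apoa2 (-0.48 to 0.24) and 0.06 for Apoh (-0.27 to 0.39). It was 0.02 for Mttp (-0.46 to 0.50), 0.05 for Apoc4 (-0.38 to 0.48) and widest for Apoc1 at -0.16 (-0.81 to 0.50). A shift in disomes common to all genes would be removed by the scaling and could not be seen.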

How the data were processed

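The deposited table holds footprint counts as whole numbers, not normalized by the authors, with 1 transcript identifier a gene, and its name refers to coding sequences. Cutadapt 3.5 and Bowtie2 are named in the submitters' processing notes. Per the labels' protocols, adaptors carried a sample barcode and a molecular identifier. Its use in counting, genome build, annotation and strand setting: not given in the sources used here. Column names give footprint class, diet and barcode but no replicate number. The labels used here list no replicate 2 of the HFHS disomes. Separate animals are not stated in the labels, so the p-values reflect only spread among these samples, which may be technical.

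Here all genes were fitted with edgeR 4.0.16 (R 4.3.3): filterByExpr (minimum count 10), TMM scaling, robust quasi-likelihood F-test, two-sided, Benjamini-Hochberg adjustment over all genes tested, threshold 0.05. The standard error is the log2 fold change over the root of F. Levels are CPM after TMM over all 11 libraries, while each fold change comes from the fit of its own groups. DESeq2 was version 1.42.0. The code was tested on simulated data. Members, comparisons and lists were chosen with earlier results of these data known. All 8 members were to be named, with the 2 genes most like the member of smallest adjusted p for the diet in monosomes. Gene names of the members are those of the rule that chose them. The files and the RefSeq table (GRCm38.p6) pair no other Ensembl identifier with a name, so the lists of other lipoprotein genes and of cell type markers, hepatocyte markers included, were not applied, and coding lengths were not used. Alternatives were DESeq2, other filters and scalings, 1 fit of all libraries, a barcode block and libraries left out.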

Additional observations from a re-analysis of the deposited data

How the results depend on the processing

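The number of genes past the threshold for the diet in monosomes, 2 of 7, moved most. It was 1 with DESeq2, 4 with no filter, 0 with a minimum count of 50, 0 with library totals without TMM and 0 with all 11 libraries in 1 fit, and from 0 to 4 with single libraries left out. Over all 11 alternatives the log2 fold change of Apoe ran from 0.18 to 0.31 (adjusted p from 0.00120 to 0.284) and that of Apoh from 0.33 to 0.46 (0.00646 to 0.200). No gene passed for the diet in disomes, or for the difference of diet effects, under any alternative. The disome-to-monosome calls numbered 5 to 6 in HFHS and 5 to 6 in chow. Apob, Mttp, Apoe and Apoc4 were called in both diets under every alternative run, and Apoa2 under all but the loss of the HFHS disome library CTAGA.

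Several values near 0 changed sign, and none of those values was called; the cause was not tested. With single libraries left out, the monosome diet effect of Apob ran from -0.0246 to 0.24. In disomes it ran from -0.15 to 0.0516 for Apob, -0.0179 to 0.19 for Mttp, -0.30 to 0.39 for Apoc1 and -0.00219 to 0.22 for Apoc4. The difference of diet effects ran from -0.23 to 0.0929 for Apob, -0.0896 to 0.13 for Mttp, -0.0977 to 0.0907 for Apoe, -0.54 to 0.11 for Apoc1, -0.0686 to 0.18 for Apoc4 and -0.0528 to 0.12 for Apoh. The disome-to-monosome ratio of Apoh ran from -0.0780 to 0.0611 in HFHS and from -0.0659 to 0.0605 in chow. The disome diet effect of Apob was 0.0295 with no filter and 0.0153 with all 11 libraries in 1 fit. The difference for Mttp was -0.0146 with no filter, -0.00935 with a minimum count of 50 and -0.0161 with library totals, and that for Apoe was -0.0169, -0.0158 and -0.0183. The ratio of Apoh was -0.12 in HFHS with no filter, and in chow -0.16 with no filter, -0.0350 with a minimum count of 50, -0.0549 with all 11 libraries and -0.0667 without both AGCTA libraries. For the diet comparisons that last setting equals leaving out 1 library, and it does not apply to the HFHS ratio.

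Library totals in place of TMM moved the median log2 ratio of all genes by 0.12 in HFHS and 0.10 in chow, and no filter, which tests more genes, by -0.32 in HFHS and -0.26 in chow. Apoc1 in chow missed the threshold with library totals (adjusted p = 0.0898) and with all 11 libraries in 1 fit (0.128). The columns carry no replicate number, and whether a shared barcode marks a shared liver is not stated. Over 5 same-barcode pairs of libraries, deviations from the group means correlated at r = 0.097 to 0.91. In chow each disome library correlated most with the monosome library of its own barcode (AGCTA r = 0.91, ATCGT 0.76, CGTAA 0.76). Chow ATCGT and CGTAA also correlated with each other across classes (r = 0.63 both ways), where centring with AGCTA far off puts both on the same side. The HFHS disome library CTAGA correlated at r = 0.15 with the monosome library GATCA and at 0.097 with its own barcode. The HFHS disome library GCATA correlated most with its own barcode (r = 0.33). With only 2 HFHS disome libraries, deviations from their mean are equal and opposite, so these values cannot decide the pairing. The main fits did not take the barcodes as pairs. With the sample barcode as a replicate block, Apoc1 in HFHS passed (-0.46, adjusted p = 1.37e-05), the number called in HFHS was 6, and no other call changed. Disome levels rest on fewer counts than monosome levels, as few as 45 in a library for Mttp.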

Other observations

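Across the 11 libraries, with log2(CPM + 1) centred on the mean of each footprint class, Apoc1 and Apoa2 followed each other most closely of the 21 pairs (Pearson r = 0.89). In each footprint class GCATA was the lowest HFHS library for both genes. Apoe and Apoh came next (r = 0.75), and Apob and Apoc4 ran opposite to each other (r = -0.62). Among the members, Apoe had the smallest adjusted p for the diet in monosomes. Of 1764 genes, those most like Apoe were ENSMUSG00000034528 (r = 0.93) and ENSMUSG00000000673 (r = 0.92), which the files do not pair with names. These values describe libraries that share diets, scaling and barcodes, and they carry no test.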
